A study of Mus musculus with 2 samples.

Results

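The genes described here make, load and use microRNAs, the short RNAs that lower the output of messenger RNAs, or control the let-7 branch of that pathway. They are Drosha, Dgcr8, Dicer1, Tarbp2, Ago1, Ago2, Tnrc6a, Tnrc6b, Lin28a and Trim71. They were chosen by gene symbol, and every coding transcript that the mouse annotation gives for them and the table holds was kept. This gave 19 coding transcripts of 10 genes, of 49490 coding transcripts and 121429 transcripts of all kinds in the table. All 10 genes had at least 1 coding transcript, and all 19 coding transcripts had exon and intron values above 0 in each library and a mean exon value above 1.

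The cells were wild-type (WT) mouse embryonic stem cells (ESC) of the XY line DTCM23/49, kept without feeder cells on gelatin in medium with serum and leukemia inhibitory factor. For 10 min they were given 200 µM 4-thiouridine (4sU), a modified uridine that marks RNA made while it is present. The marked RNA was biotinylated and pulled down on beads, which gave the labeled library, and the RNA left in the supernatant gave the unlabeled library. There was 1 library of each kind, both of replicate 1, so that nothing below has a replicate check and no test was made. The second library carries the word total in some labels and preexisting in others, and was taken to hold unlabeled RNA. The same protocol names cells of this line without microRNAs, which were not analysed here, so that both libraries here come from WT cells.

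In the nucleus, a complex of the nuclease Drosha and its RNA-binding partner Dgcr8 cuts a hairpin out of the primary transcript. After export the nuclease Dicer1, helped by Tarbp2, trims the hairpin to a duplex, one strand of which is loaded into an Argonaute protein. The Argonaute finds messenger RNAs through the seed of the microRNA, bases 2 to 8, and the Tnrc6 scaffolds then bring in the deadenylases that shorten the poly(A) tail. In embryonic stem cells, Lin28a binds the precursor of let-7 and keeps it from being matured, and Lin28a and Trim71 are in turn textbook targets of let-7.

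The following mature microRNAs are shown because their seeds define the sites looked for below, those of let-7, of miR-125 and of the clusters that embryonic stem cells are known for. The seed is in capitals, and the sequences and positions are those of RefSeq on GRCm38.p6.
let-7a-5p (chr13:48538239-48538260, minus strand): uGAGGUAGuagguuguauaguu
let-7g-5p (chr9:106178846-106178867, plus strand): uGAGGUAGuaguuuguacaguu
miR-125b-5p (chr9:41581940-41581961, plus strand): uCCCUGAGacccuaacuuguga
miR-294-3p (chr7:3220691-3220712, plus strand): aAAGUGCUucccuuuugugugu

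The let-7 seed was shared by 11 mature names in the RefSeq table, the seed of miR-125 by 5 and that of miR-294 by 5. The complement of each seed was searched in the 3′ untranslated region (UTR) of 1 coding transcript per member (Ago1-201 for Ago1, the leading one for the rest), on the strand of the messenger RNA. The letters were CTACCTC for let-7, CTCAGGG for miR-125 and AGCACTT for miR-294 and its family, none of which overlaps another in these regions. Lin28a-201 held 2 matches to let-7 and 1 to miR-125 in a 3′ UTR of 2775 bases, and Trim71-201 held 4 and 1 in 5512 bases. They are shown because these transcripts are the most abundant coding ones of the group and their genes are the ones tied to let-7. The 7 matching bases are in capitals, the strand is minus throughout, and the build is GRCm38 with GENCODE M21.
Lin28a, miR-125 (chr4:134005300-134005323): aggtacatgagcaatCTCAGGGat
Lin28a, let-7 (chr4:134005188-134005211): gcacagcctgttgaaCTACCTCat
Lin28a, let-7 (chr4:134004550-134004573): gagatcgccacaaacCTACCTCac
Trim71, miR-125 (chr9:114512558-114512581): caaagaagaaatcgtCTCAGGGat
Trim71, let-7 (chr9:114512471-114512494): aacattgcctaagtcCTACCTCag
Trim71, let-7 (chr9:114512375-114512398): agtgataatttctatCTACCTCaa
Trim71, let-7 (chr9:114509046-114509069): tttagtatggattttCTACCTCaa
Trim71, let-7 (chr9:114509020-114509043): ttggcaaaaagttgtCTACCTCac

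An A follows the match in each of these sites. Of 744 genes with a 3′ UTR about as long as that of Lin28a, 15.9% held a let-7 match, and of 257 genes with one about as long as that of Trim71, 33.1% did. These shares and those below count genes with at least 1 match. The share with as many matches as a member was not computed. Over all 12472 genes with a 3′ UTR the share was 10.2% for let-7, 14.7% for miR-125 and 16.9% for the miR-294 family. Ago2-201 held 3 let-7 matches in a 3′ UTR of 11064 bases, a length at which 52.2% of 23 genes held one, and Tarbp2-201 held 1 in 334 bases, where 2.87% did. Outside let-7, Ago2 held 2 matches and Dicer1 1 match to miR-125, which 39.1% and 31.1% of genes with 3′ UTRs of like length held, and for the 1 match of Lin28a and of Trim71 these shares were 26.7% and 39.7%. Tnrc6b held 2 matches and Trim71 1 to the miR-294 family, at lengths where 75.0% and 62.3% of genes held one. Drosha, Dgcr8, Ago1 and Tnrc6a held no match to any of the seeds. A match is a stretch of letters and was not measured as a binding site here, and the levels of the microRNAs themselves were not analysed.

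The authors deposited relative abundances per length, called TPM, with an exon value for each of the 121429 transcripts and an intron value for 91702 of them. A column adds up to 10 times a usual TPM total, and TPM below means the deposited unit. Since the table keeps no read counts, depth is unknown and counting error cannot be given. Introns made up 15.4% of the labeled and 6.26% of the unlabeled library. All 10 markers of embryonic stem cells, such as Pou5f1 and Nanog, were found, between 72.9 and 6580 TPM in unlabeled RNA. The 7 fibroblast markers summed to 8.72 TPM in labeled and 20.9 TPM in unlabeled RNA, with Col1a2, Col3a1, Pdgfrb and Lum listed at 0 in the latter. The 8 markers of differentiating cells summed to 75.3 and 81.6 TPM, of which Pax6 made up 68.7 and 70.5 TPM, and Sox17, Gata6 and Foxa2 were listed at 0. Their part in the values below was not tested. In bulk RNA, fewer cells that express a gene and less RNA per cell cannot be told apart.

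Unless another is named, the value of a gene is that of its coding transcript with the highest mean exon value, its leading transcript. In unlabeled RNA, the exon levels per length ran from 10.5 TPM for Tarbp2 to 1146 TPM for Lin28a, a 109.7-fold range, followed by Trim71 and Ago2 from the top. In labeled RNA they ran from 24.7 TPM for Tarbp2 to 207.7 TPM for Trim71, with Lin28a second, an 8.40-fold range. No gene changed its place in the order by more than 2 between the libraries, but the spread between the genes was narrower in labeled RNA. The median coding transcript had 25.4 TPM in unlabeled and 20.7 TPM in labeled RNA, and 9 of the 10 genes had a mean exon value above that of the median transcript.

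**Figure D1:**
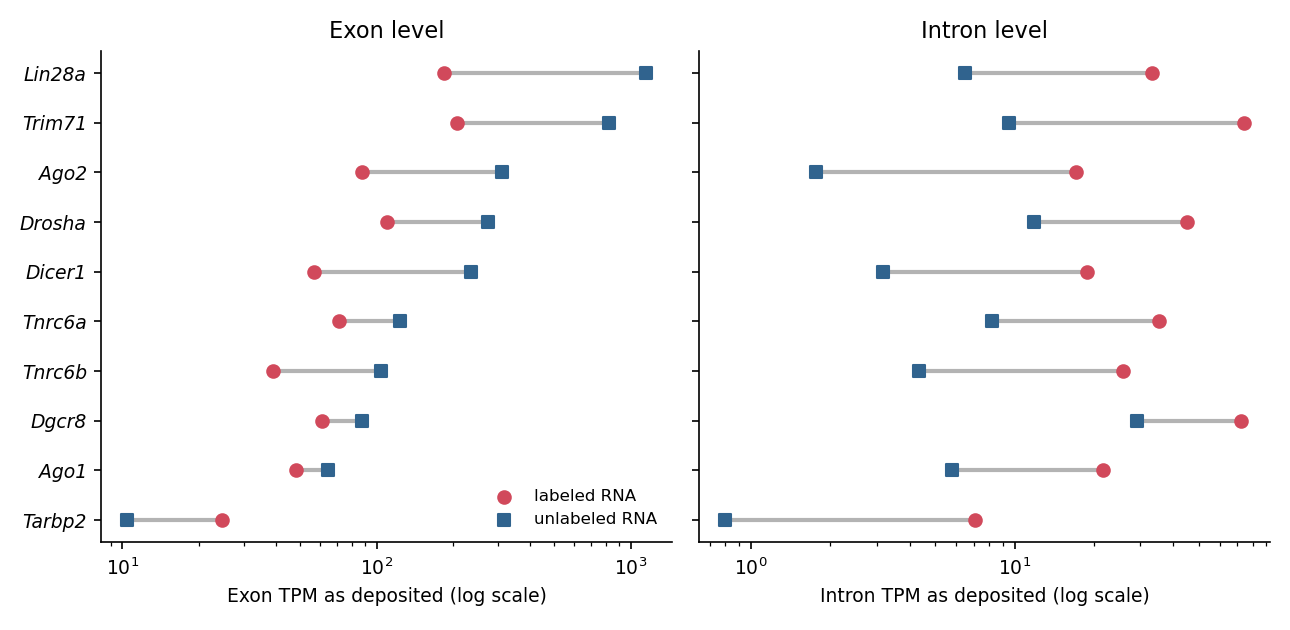
Exon (left) and intron (right) levels of the leading coding transcript of each gene in the labeled and the unlabeled library, in TPM as deposited on log axes, 1 library each and ordered by the unlabeled exon level. The labeled exon level is the lower one for every gene but Tarbp2 (24.7 against 10.5 TPM), whereas the labeled intron level is the higher one for all 10.

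Because each library was normalised by itself, the ratio of the labeled to the unlabeled exon value was set relative to its median of 0.757 over the 31386 coding transcripts that passed the same minimums. On the log2 scale, this relative ratio is low for RNA that was mostly present before the 10 min of labeling. It was below the median for 9 of the 10 genes, and their median was -0.96, where that of all coding transcripts is 0 and that of the leading transcripts of 12643 genes was 0.06. Lin28a, Dicer1, Trim71 and Ago2 lay 2-fold or more below the median, which makes 4 of 10, beside 13.8% of all coding transcripts and 13.0% of leading transcripts. Tarbp2 lay 2-fold or more above, which makes 1 of 10, beside 20.7% and 22.6%. Tnrc6b fell just short of the limit, at -0.9998 and 1.9997-fold below the median.

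Counted over the 19 coding transcripts, 5 lay 2-fold or more below the median, beside 13.8% of all coding transcripts. The number 2-fold or more above it was 3, beside 20.7%, and 15 lay below the median. The fifth low one was Tarbp2-210, and the high ones were Tarbp2-201, Tarbp2-202 and Tarbp2-208. Since transcripts of the same gene share exons and reads, these are not separate measurements.

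**Figure D2:**
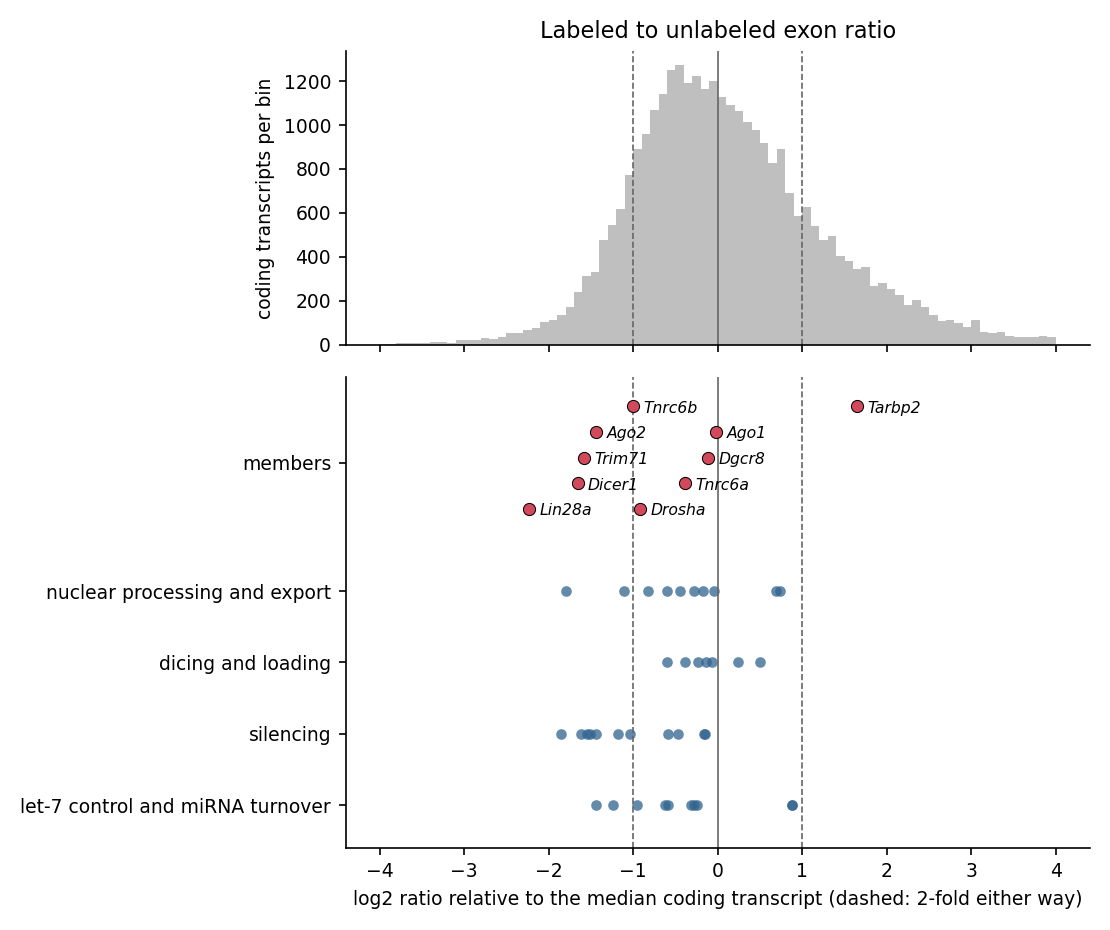
Histogram of the log2 ratio of the labeled to the unlabeled exon value, relative to the median, over coding transcripts in bins of 0.1 (top), and the same ratio for the 10 genes and for 4 groups of other genes of the pathway (bottom), 1 point per leading transcript. Lin28a is the lowest point at -2.24 and Tarbp2 the highest at 1.65, and all 11 genes of the silencing group lie below 0.

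The nuclear pair differed in both the spliced and the unspliced measure. Drosha, the nuclease that cuts the primary transcript, had 109.5 TPM in the exons of labeled RNA and 273.8 TPM in those of unlabeled RNA for Drosha-201 (ENSMUST00000090292, chr15:12824863-12935291, plus strand, 35 exons). Its partner Dgcr8 had 61.2 and 87.4 TPM for Dgcr8-201 (ENSMUST00000009321, chr16:18253948-18289246, minus strand, 14 exons). Drosha was thus 1.79-fold higher than Dgcr8 in labeled and 3.13-fold higher in unlabeled RNA.

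The introns showed the opposite order. The introns of Drosha had 45.1 TPM in labeled and 11.9 TPM in unlabeled RNA, and those of Dgcr8 had 72.4 and 29.2 TPM. The unlabeled intron level of Dgcr8 was the highest of the 10 genes and lay at percentile 96.7 of all coding transcripts. Its intron to exon ratio was 1.18 in labeled and 0.334 in unlabeled RNA, the highest of the group in each library, while Drosha had 0.412 and 0.0433.

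Dgcr8 was also the gene with the largest share of its exon value outside its coding transcripts. The 6 other transcripts of Dgcr8 in the table, annotated as retained introns or processed transcripts, took 83.5% of the exon value of the gene in labeled and 79.3% in unlabeled RNA. Dgcr8-206, a processed transcript, had 73.8 and 87.8 TPM, and the retained-intron transcripts Dgcr8-202 and Dgcr8-205 had 62.8 and 99.7 TPM and 86.3 and 50.3 TPM. The last of these was the 1 transcript of Dgcr8 more than 2-fold above the median, at 1.18. Dgcr8-204 was listed at 0 in its exons but at 164.3 and 99.0 TPM in its intron. The end of Dgcr8 overlaps Trmt2a on the other strand over 825 bases, a gene with 381.4 TPM in labeled and 294.1 TPM in unlabeled RNA summed over its transcripts. Whether the counting used strand is not given in the sources used here, so that reads of the shared stretch cannot be told apart.

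The transcript of Dgcr8 itself carries hairpins of the kind that its protein recognises. They are printed because both lie in exon 2 of Dgcr8-201. The annotated 5′ ends of 2 retained-intron transcripts of Dgcr8 lie there too. That of Dgcr8-203 falls within the hairpin of miR-3618, and that of Dgcr8-202 just outside it. Mir1306 lies within the coding part of exon 2 of Dgcr8-201, and its RefSeq hairpin is given with the mature arms in capitals. The mature miR-3618-3p, with its seed in capitals, comes from the 5′ UTR part of the same exon.
Mir1306 hairpin (chr16:18284239-18284317, minus strand): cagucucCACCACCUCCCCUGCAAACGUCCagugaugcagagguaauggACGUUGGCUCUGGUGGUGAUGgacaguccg
miR-3618-3p (chr16:18284562-18284583, minus strand): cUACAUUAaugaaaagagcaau

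The retained-intron transcript Dgcr8-203 is annotated to start at position 18284563, 1 base from the last base of miR-3618-3p, and Dgcr8-202 at 18284535. Dgcr8-203 had 47.7 TPM in the exons of labeled and 59.1 TPM in those of unlabeled RNA. The genes of both hairpins were listed at 0 in both libraries. How these annotated starts arose was not tested.

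Drosha had a second coding transcript of nearly the same level, Drosha-207, with 101.5 TPM in labeled and 222.6 TPM in unlabeled RNA and the same intron values as Drosha-201. The relative ratio was -0.92 for Drosha-201 and -0.73 for Drosha-207, at percentile 16.1 for the former. Another 5 transcripts, annotated as processed transcripts or a retained intron, took 57.3% of the exon value of the gene in labeled and 60.0% in unlabeled RNA. In 3 of them, Drosha-203, Drosha-204 and Drosha-206, the labeled intron to exon ratio was above 1, at 1.21, 2.00 and 2.33.

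The dicing pair differed widely. Dicer1, which trims the hairpin to its mature length, had 56.6 TPM in the exons of labeled and 235.8 TPM in those of unlabeled RNA in its 1 listed transcript, Dicer1-201 (ENSMUST00000041987, chr12:104687742-104751952, minus strand, 27 exons). Tarbp2, its double-stranded RNA-binding partner, had 24.7 and 10.5 TPM for Tarbp2-201 (ENSMUST00000023813, chr15:102518459-102523676, plus strand, 9 exons). Dicer1-201 was thus 2.29-fold higher than Tarbp2-201 in labeled and 22.6-fold higher in unlabeled RNA. Summed over its 5 coding transcripts, however, Tarbp2 had 71.8 TPM in labeled and 43.0 TPM in unlabeled RNA. That sum was above Dicer1 in labeled and below it in unlabeled RNA.

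The relative ratio of Dicer1 was -1.66, at percentile 3.59 of coding transcripts, and that of Tarbp2 was 1.65, at percentile 89.1. If 0.142 of each unlabeled value was subtracted from the labeled value, as leakage between the libraries, they were -2.66 and 1.84. Tarbp2-201 was the lowest of the 10 leading transcripts in every exon and intron level. It held 34.5% of the coding exon value of its gene in labeled and 24.3% in unlabeled RNA. Summed over coding transcripts, Tarbp2 was above Dgcr8, Dicer1, Tnrc6a and Tnrc6b in labeled RNA, and still the lowest in unlabeled RNA. The introns of Tarbp2-201 had 7.05 TPM in labeled and 0.80 TPM in unlabeled RNA, and those of Dicer1-201 had 18.8 and 3.18 TPM. Tarbp2 is also the shortest gene of the group, with 5218 bases from start to end of the transcript.

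The 5 coding transcripts of Tarbp2 were not alike. Tarbp2-202 had 19.2 TPM in labeled and 6.28 TPM in unlabeled RNA, with the highest relative ratio of the 19 transcripts at 2.02, and Tarbp2-208 had 15.3 and 7.84 TPM with 1.37. Tarbp2-207 had 10.1 and 9.64 TPM with 0.46. Tarbp2-210 was the exception, with 2.45 and 8.80 TPM, a relative ratio of -1.44 and a labeled intron to exon ratio of 4.29. Summed over its coding transcripts the gene kept a relative ratio of 1.14. The exon levels of these single transcripts are the lowest among the coding transcripts of the group, and how far counting error moves them is unknown.

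The Argonautes differed from each other in unlabeled more than in labeled RNA. Ago2, the Argonaute that can cut its target, had 87.4 TPM in the exons of labeled and 312.7 TPM in those of unlabeled RNA in its 1 transcript, Ago2-201 (ENSMUST00000044113, chr15:73095844-73184935, minus strand, 19 exons). Ago1, which also binds microRNAs, had 48.3 and 64.6 TPM for Ago1-205 (ENSMUST00000176315, chr4:126439503-126459207, minus strand, 12 exons). Ago2-201 was 1.81-fold higher than Ago1-205 in labeled and 4.84-fold higher in unlabeled RNA. Summed over its 2 coding transcripts, Ago1 had 80.3 TPM in labeled and 121.4 TPM in unlabeled RNA, nearer to Ago2 in each library.

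The relative ratio of Ago2 was -1.44, at percentile 5.69 and -2.18 with leakage subtracted, whereas that of Ago1 was -0.02, near the median. The introns of Ago2 had 17.04 TPM in labeled and 1.76 TPM in unlabeled RNA, so that the unlabeled intron to exon ratio of 0.00563 was the lowest of the 10 genes. Those of Ago1-205 had 21.6 and 5.77 TPM and a ratio of 0.0893. Ago1-205 is a partial transcript of 1662 bases. The longer Ago1-201 had 32.1 TPM in labeled and 56.8 TPM in unlabeled RNA with a relative ratio of -0.42, and the 3 other transcripts took 41.8% and 42.9% of the exon value of the gene. The end of Ago2 overlaps Chrac1 on the other strand over 1711 bases, with 55.8 and 31.3 TPM.

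The scaffolds Tnrc6a and Tnrc6b, which link an Argonaute to the deadenylases, each had 1 coding transcript in the table. Tnrc6a-201 (ENSMUST00000094053, chr7:123124181-123195296, plus strand, 24 exons) had 71.4 TPM in the exons of labeled and 123.3 TPM in those of unlabeled RNA. Tnrc6b-201 (ENSMUST00000067689, chr15:80711313-80941085, plus strand, 25 exons) had 39.3 and 103.7 TPM. Their exon levels lay within 1.19-fold of each other in unlabeled RNA and 1.82-fold in labeled RNA. The relative ratio was -0.39 for Tnrc6a and -0.9998 for Tnrc6b.

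Tnrc6b was the longest gene of the group, with 229773 bases. Its introns had 25.8 TPM in labeled and 4.36 TPM in unlabeled RNA, and its labeled intron to exon ratio of 0.658 was second to that of Dgcr8. The introns of Tnrc6a had 35.3 and 8.20 TPM, with ratios of 0.494 in labeled and 0.0665 in unlabeled RNA.

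The leading transcripts of Lin28a and Trim71 had the highest exon levels of the group in each library. Lin28a-201 (ENSMUST00000051674, chr4:134003330-134018841, minus strand, 4 exons) had 184.2 TPM in labeled and 1146 TPM in unlabeled RNA, 6.22-fold more in the latter. Trim71, a ubiquitin ligase that binds RNA, had 207.7 and 821.4 TPM for Trim71-201 (ENSMUST00000111816, chr9:114507133-114564369, minus strand, 4 exons), 3.95-fold more. Relative to the median coding transcript, the labeled to unlabeled exon ratio of Lin28a was 4.71-fold lower and that of Trim71 2.99-fold lower.

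On the log2 scale these are -2.24 for Lin28a, at percentile 1.33 of coding transcripts, and -1.58 for Trim71, at percentile 4.30. With leakage of unlabeled RNA subtracted from the labeled library they were -5.03 and -2.48. The share subtracted was set at the 1st percentile of these same exon ratios. Lin28a lay close to it, so that little of its labeled value was left and -5.03 depends on that setting. The introns of Lin28a-201 had 33.2 TPM in labeled and 6.49 TPM in unlabeled RNA. Those of Trim71-201 had 74.0 and 9.55 TPM, the highest labeled intron level of the 10 leading transcripts. The intron level of Lin28a was 0.566% of its exon level in unlabeled and 18.0% in labeled RNA, and for Trim71 these were 1.16% and 35.6%. Trim71 contains C130032M10Rik on the other strand over 728 bases, with 18.3 TPM in labeled and 15.0 TPM in unlabeled RNA.

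The 3 other coding transcripts of Lin28a did not share the low ratio. Lin28a-203 had 50.6 TPM in labeled and 75.5 TPM in unlabeled RNA, Lin28a-202 had 46.8 and 62.2 TPM, and Lin28a-204 had 24.9 and 33.8 TPM. Their relative ratios were -0.17, -0.01 and -0.04, all close to the median. Lin28a-201 took 60.1% of the exon value of the coding transcripts in labeled and 87.0% in unlabeled RNA. They are short annotated transcripts, of 484, 394 and 478 spliced bases in the same order, beside 3505 for Lin28a-201. Lin28a-203 is annotated to end at position 134006250, Lin28a-202 at 134006244 and Lin28a-204 at 134007948, before any of the sites printed above, so that these transcripts hold none of them. Summed over its coding transcripts, Lin28a had a relative ratio of -1.70. The transcripts share exons, and how the quantification divided reads between them cannot be checked from the table.

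**Figure D3:**
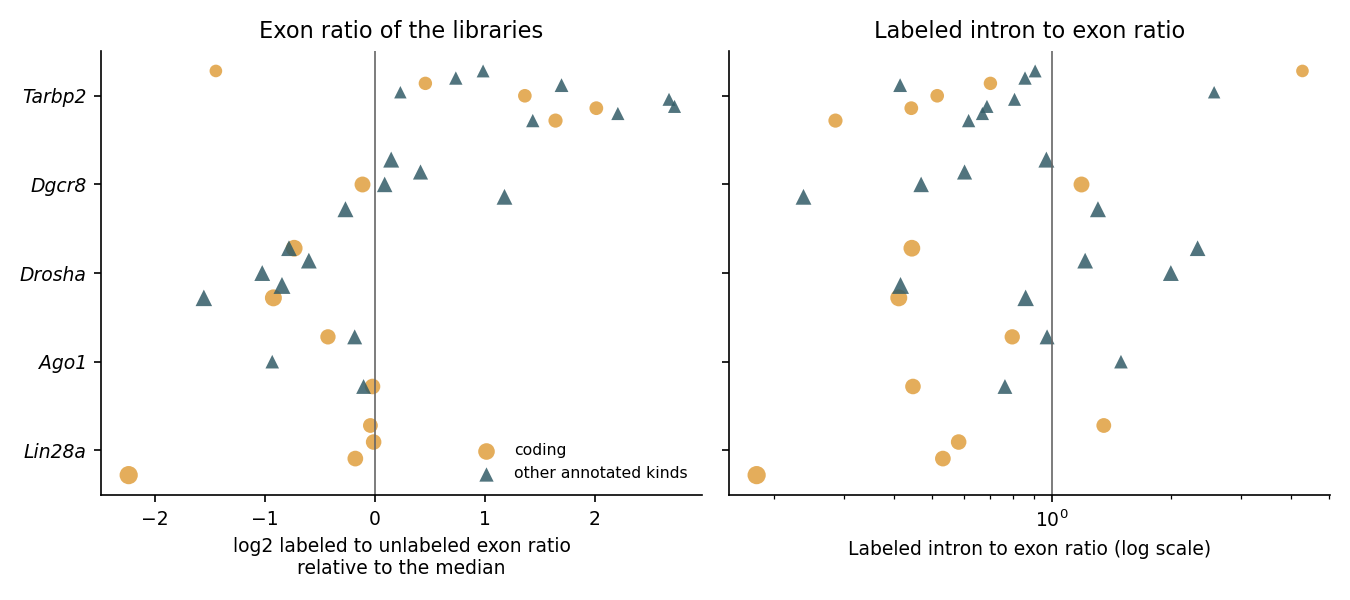
Transcripts of the 5 genes with more than 1 transcript in the table and exon values above 0 in both libraries, as coding (circles) or other annotated kinds (triangles), with symbols that grow with the mean exon level. The left panel gives the log2 ratio of the labeled to the unlabeled exon value relative to the median, and the right panel the labeled intron to exon ratio on a log axis, and Lin28a-201, at -2.24 and 0.180, is the lowest coding transcript in each.

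The introns of a gene stand for RNA that has not been spliced, so that their ratio between the libraries can be set beside that of the exons. Relative to its own median over coding transcripts, the log2 ratio of the labeled to the unlabeled intron value had a median of 0.47 over the 10 genes. It was highest for Ago2 at 1.28, Tarbp2 at 1.15 and Trim71 at 0.96, and lowest for Dgcr8 at -0.68 and Ago1 at -0.09. Ago2 and Trim71 thus lay above the median in their introns while they lay 2-fold or more below it in their exons. Dicer1 did so with 0.57 against -1.66 and Lin28a with 0.36 against -2.24.

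The study estimates rates from a single time point by comparing the intron to exon ratio of a transcript in labeled and unlabeled RNA, since introns are lost by processing and exons by degradation. Rates can be computed where the labeled ratio is above the unlabeled ratio and below 1. This held for 9 of the 10 leading transcripts, beside 66.7% of all coding transcripts and 71.1% of leading transcripts, and for 16 of the 19 coding transcripts, or 84.2% with a 95% Wilson interval of 62.4 to 94.5%. The interval covers the number of transcripts, not the error of a ratio. It counts transcripts of 1 gene as separate although they share exons and reads, and so serves as a description only. The exceptions were Dgcr8-201, Lin28a-204 and Tarbp2-210, which had labeled ratios of 1.18, 1.35 and 4.29. Compatible coding transcripts had a median mean exon value of 44.4 TPM, beside 24.1 TPM for all coding transcripts. For the leading transcripts of the members it was 121.8 TPM. The part of the level in the share with compatible ratios was not tested.

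The labeled ratio was above the unlabeled ratio in all 10 leading transcripts, by 3.54-fold for Dgcr8 at the least and 34.7-fold for Ago2 at the most. The unlabeled ratio lay below the median coding transcript, 0.111, in 9 of the 10 and the labeled ratio below its median, 0.570, in 8 of the 10. Dgcr8 was above both medians and Tnrc6b above that of labeled RNA. Lin28a and Ago2 were neighbours at the low end, with 0.180 and 0.195 in labeled RNA and 0.00566 and 0.00563 in unlabeled RNA.

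**Figure D4:**
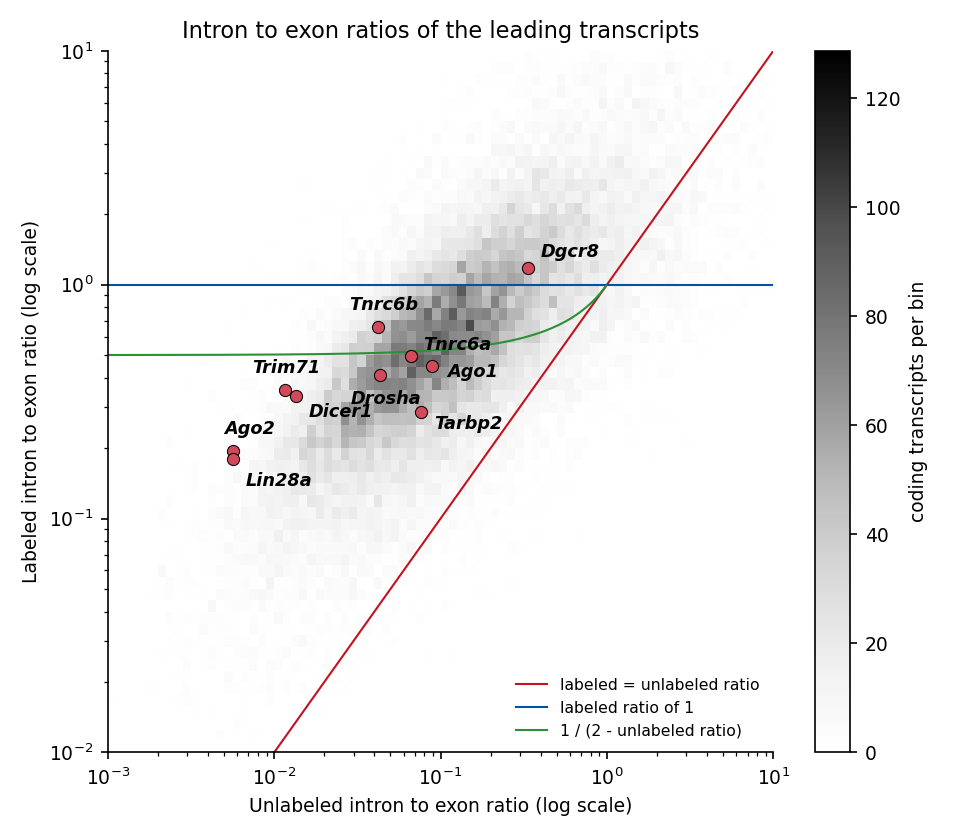
Intron to exon ratio of the leading transcripts in labeled RNA against that in unlabeled RNA, on log axes, over the density of coding transcripts in bins (grey). Rates can be computed between the diagonal and the horizontal line at 1, where 9 of the 10 genes lie, and the solution is unique above the green curve, where Tnrc6b lies.

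Rates followed from these ratios as degradation half-lives. The median over the 9 genes was 12.7 min, where that of the 20920 compatible coding transcripts was 19.0 min with quartiles of 10.1 and 41.1 min. Tnrc6b had the longest half-life at 69.0 min and was the 1 gene with a single solution. Drosha with 3.89 min, Tnrc6a with 9.30 min and Trim71 with 12.7 min each had a second solution, of 2.82, 0.644 and 2.17 min. For the other genes the model had no exact solution. Their half-lives were 5.36 min for Dicer1, 3.37 min for Ago1, 15.97 min for Tarbp2, 16.8 min for Ago2 and 18.9 min for Lin28a. These are the closest points with 1 of the study's equations held exact, not the nearest fit over both rates. The distance left to the measured ratios, in log space, was 0.734 for Tarbp2, 0.634 for Lin28a and 0.540 for Ago2. It was 0.116 for Ago1 and 0.0374 for Dicer1.

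With the second library taken as unlabeled RNA, the order of the half-lives was not that of the exon ratios between the libraries. Dicer1 had the second lowest relative exon ratio of the 10 genes but a half-life at percentile 9.73 of compatible transcripts. Lin28a had the lowest ratio with a half-life near the median, at percentile 49.7. Neither half-life was an exact solution, and that of Lin28a was 6.18 min with both rates fitted. Half-lives of transcripts of 1 gene differed as well, with 3.37 min for Ago1-205 and 71.3 min for Ago1-201, and with 5.55 min for Tarbp2-208 and 44.1 min for Tarbp2-207. The 3 coding transcripts of Lin28a with rates lay closer together, at 18.9 min for Lin28a-201, 12.1 min for Lin28a-203 and 11.8 min for Lin28a-202.

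These half-lives rested on how the libraries were read. With the second library read as total RNA, the half-life was 217.8 min for Lin28a, 224.5 min for Trim71, 237.9 min for Ago2, 177.3 min for Dicer1 and 172.6 min for Tnrc6b. It was shorter for the others, with 69.1 min for Drosha, 57.6 min for Tnrc6a, 34.9 min for Ago1 and 22.3 min for Tarbp2. In this reading, the genes with lower exon ratios between the libraries had the longer half-lives, but both are computed from the same exon values. This order is therefore not a separate observation and does not decide between the readings. Only the order among Lin28a, Dicer1, Trim71 and Ago2 differed. With 0.142 of the unlabeled value subtracted from the labeled value as leakage, it was 762.1 min for Trim71, 647.9 min for Dicer1, 49.4 min for Ago2, 47.0 min for Drosha, 33.97 min for Tnrc6a and 9.47 min for Ago1. Tarbp2 hardly moved, at 14.8 min, and Lin28a and Tnrc6b were no longer compatible. With the nearest fit sought over both rates, it was 6.18 min for Lin28a, 6.17 min for Ago2 and 2.74 min for Tarbp2. Tnrc6b ran from 41.0 to 172.6 min over the alternatives under which it had a half-life.

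**Figure D5:**
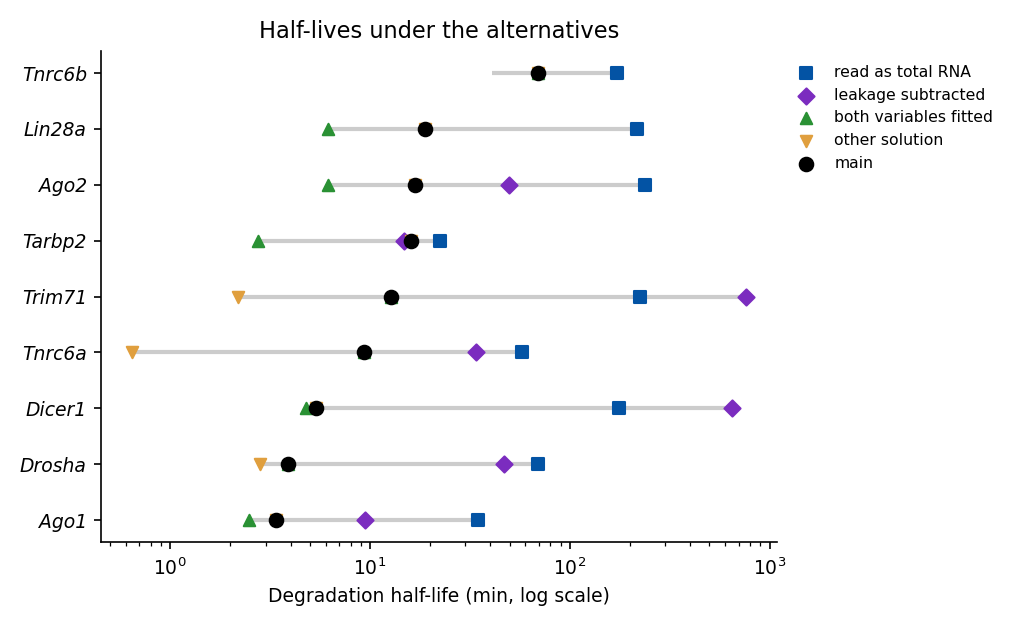
Degradation half-life of the leading transcript of the 9 compatible genes, in min on a log axis, as computed here (black) and under the alternatives, with a grey line from the lowest to the highest value over all alternatives. The value of Trim71 ran from 2.17 to 762.1 min and that of Tarbp2 from 2.74 to 22.3 min.

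Other genes of the pathway were taken from a list of 39, of which 38 had a leading transcript above the minimum. Ago4, with 0.27 TPM in labeled and 0.07 TPM in unlabeled RNA, did not. Of these 38 genes, 11 lay 2-fold or more below the median in the relative exon ratio and 0 above, beside 13.0% and 22.6% of the leading transcripts of all genes. Their median was -0.46, with 32 below 0, and 35 had compatible ratios, beside 71.1% of leading transcripts. As no test was made, there is no count by a p-value.

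The genes that carry out silencing made up most of the low ones. In that group 7 of 11 lay 2-fold or more below, beside the same 13.0% of leading transcripts, with a median of -1.18. They include Cnot7, a deadenylase of the CCR4-NOT complex and the lowest gene of the list at -1.86, with 85.8 TPM in labeled and 410.1 TPM in unlabeled RNA, and Pabpc1, which coats the poly(A) tail, at -1.62 with 1454 and 5894 TPM. Among genes of nuclear processing and export, 2 of 10 lay 2-fold or more below, a share near that of all genes. One of them was Khsrp, which binds let-7 precursors, at -1.80 with 82.3 TPM in labeled and 377.4 TPM in unlabeled RNA. The other was Xpo5, which exports the hairpin from the nucleus, at -1.11 with 56.8 and 162.0 TPM. None of the 7 genes of dicing and loading passed 2-fold in either direction, and their median was -0.13.

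Among genes of let-7 control and microRNA turnover 2 of 10 lay 2-fold or more below, again near the share of all genes, with a median of -0.45. They were Lin28b, the paralog of Lin28a, at -1.23 with 91.7 TPM in labeled and 284.9 TPM in unlabeled RNA, and Zswim8, part of a ubiquitin ligase that acts on Argonautes, at -1.44 with 3.35 and 12.03 TPM. Xpo5, Lin28b and Zswim8 are outside the rule for named genes and were picked after their values were seen. The highest genes of the list were Dis3l2, a nuclease that degrades the let-7 precursor once it carries an oligo(U) tail, and the poly(A)-specific nuclease Parn, both at 0.88, followed by the cap-binding subunit Ncbp2 at 0.73. Dis3l2 had 15.3 TPM in labeled and 10.9 TPM in unlabeled RNA and a labeled intron to exon ratio of 1.64, Parn had 52.9 and 38.0 TPM, and Ncbp2 had 107.4 and 85.3 TPM. Tarbp2 at 1.65 was therefore higher than each of the 38 other genes, and Lin28a at -2.24 lower.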

How the data were processed

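Labeled and unlabeled RNA were each measured in 1 library. According to the submitters' processing notes and the paper's methods, reads outside ribosomal RNA were aligned to exonic and intronic sequences with STAR 2.5.0 and quantified with RSEM, on the mouse reference of Ensembl v91. The authors deposited an exon value for each transcript and an intron value for 91702 of them, named TPM. As each column summed to 10 times a TPM total, the deposited values were treated as a score with TPM proportions. Depth is unknown, and no column was left unused.

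Symbols, biotypes, coordinates and 3′ UTRs were taken from GENCODE M21 (GRCm38), which held 90.9% of the 121429 transcripts. Of 27 annotated coding transcripts of the members, 19 were in the table and the others were not analysed here. The members and lists were chosen with earlier results of these data known. Named were all members, and of the pathway list the 3 highest and 3 lowest relative ratios with a mean exon value of at least 10.

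Rates were computed by the study's equations with a labeling time of 10 min, on 4000 grid points refined by root finding, and the solver was tested on simulated data. Of 2 solutions, that nearest the median rates of transcripts with 1 solution was used. No test was made. Alternatives were other minimums (none, 10), a pseudocount of 0.1, leakage (the 1st percentile of the exon ratio), other choices of transcript, background, fold (1.5) and solution, the second library as total RNA, and ratios times 0.9 and 1.1. The scripts used Python 3.11.15 with pandas 2.3.3 and numpy 2.4.6, scipy 1.17.1 for root finding and matplotlib 3.10.9 for the plots.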

Additional observations from a re-analysis of the deposited data

How the results depend on the processing

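No paired analysis was possible because labeled and unlabeled RNA have 1 library each and nothing was tested. With 1 library of each kind and no depth, neither replicate nor counting error limits can be given. Over the alternatives, between 4 and 6 genes lay below the fold limit and 1 above. From 7 (leakage subtracted) to 9 genes had compatible ratios, as did 68.4 to 88.2% of the members' coding transcripts. The shares over all coding transcripts were computed for the main setting only, so that these counts have no like share beside them. The median relative exon ratio of -0.96 was -1.01 without a minimum, -0.81 with a mean exon value above 10, -1.001 with the pseudocount, -1.33 with leakage subtracted, -0.92 with transcripts summed and -1.11 against transcripts of all biotypes. The minimum of 10 put Dgcr8 at 0.03 and Ago1 at 0.13, above the median. The median half-life of 12.7 min was 12.6 min with the pseudocount, 47.0 min with leakage subtracted, 11.5 min with transcripts summed, 172.6 min with the second library read as total RNA, 5.36 min with the smaller of 2 solutions and 6.17 min with both rates fitted. It was 8.70 and 14.8 min with the labeled ratio times 0.9 and 1.1, and 14.7 and 10.998 min with the unlabeled ratio times 0.9 and 1.1. The cause of these changes was not tested.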
